A study of Oryctolagus cuniculus with 24 samples.

Results

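The response of rabbit peripheral blood mononuclear cells (PBMCs) to PMA-Ionomycin was compared between a culture time of 4 hours (T4) and one of 24 hours (T24). The quantity described is the interaction of stimulation with time, which is the difference between PMA-Ionomycin and mock-stimulated cells at T24 minus the same difference at T4. Of the 24 arrays of the series, 16 enter it, 4 in each of 4 groups: mock T4, PMA-Ionomycin T4, mock T24 and PMA-Ionomycin T24. PBMCs of rabbits 1, 2, 4 and 5, all females of the New Zealand White breed, were cultured in RPMI medium with serum. They received either mock buffer or a mixture of PMA at 10 ng/mL and ionomycin at 1 µg/mL, and each rabbit gave 1 array to every group. The other 8 arrays, of LPS cultures, serve for the comparison between stimuli and for alternative fits to all arrays. A positive interaction means that the gene was more strongly increased, or less decreased, by PMA-Ionomycin at T24 than at T4, and a negative one the opposite.

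PMA activates protein kinase C, and ionomycin is an ionophore that carries calcium into the cell and so activates calcineurin and the NFAT transcription factors. Given together they replace the signals that follow engagement of the antigen receptor of T and B lymphocytes, which lie downstream of the receptor itself. Lymphocytes stimulated in this way are known to transcribe immediate early factors and cytokines within hours and to enter the cell cycle later. Monocytes in culture adhere and take on features of macrophages, which include a larger lysosomal compartment.

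The arrays measured total RNA of whole PBMC cultures in one colour, so that fewer cells of a type and less RNA per cell cannot be told apart. The median spot intensity ranged from 66.0 to 102.5 over the 16 arrays, and between 50.6% and 60.0% of the genes were above background on an array. The arrays lay on 3 slides, each of which held all 4 groups, but from different rabbits. The PBMC label was checked against marker genes. All 14 measured monocyte markers were above background on some arrays and 10 of them on all 16, and 7 of 9 B cell markers were above background on all 16. Of 12 T cell markers 8 were above background on all 16 arrays, while CD4 and BCL11B were above it on none. A single NK cell marker, NCR3, was measured by name.

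The array carried probes of 60 bases. The probes of 8 genes on which the description turns are printed here, 5′ to 3′ and in the sense of the transcript, as the array design gives them. They belong to a cyclin, an enzyme with the largest opposite effects at T4 and T24, an RNA sensor, a cytokine, an immediate early factor, a lysosomal protease, a subunit of the lysosomal proton pump and the invariant chain of MHC class II. Capitals mark bases covered by another probe of the same gene.
CCNB1: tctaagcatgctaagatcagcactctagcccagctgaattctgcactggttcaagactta
BCO2: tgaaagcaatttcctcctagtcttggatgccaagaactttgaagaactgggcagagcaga
RIGI: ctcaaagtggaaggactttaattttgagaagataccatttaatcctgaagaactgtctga
IL13: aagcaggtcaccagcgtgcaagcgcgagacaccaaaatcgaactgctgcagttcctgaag
ATF3: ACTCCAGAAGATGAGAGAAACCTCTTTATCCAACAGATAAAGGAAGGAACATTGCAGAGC
CTSB: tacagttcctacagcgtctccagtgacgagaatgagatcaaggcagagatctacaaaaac
ATP6V0D2: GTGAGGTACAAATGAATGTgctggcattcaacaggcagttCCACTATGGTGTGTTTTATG
CD74: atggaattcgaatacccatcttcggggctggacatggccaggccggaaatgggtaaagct

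On the rabbit assembly oryCun2 the array design places the CCNB1 probe at chr11:85371159-85371218 on the plus strand. It places the BCO2 probe at chr1:104154564-104154623 on the minus strand, the RIGI probe at chr1:21009375-21009434 on the plus strand and the ATF3 probe at chr16:60424035-60424094 on the minus strand. The CTSB probe lies at chr2:38151902-38151961 on the plus strand and the CD74 probe at chr3:32151854-32151913 on the minus strand. The IL13 probe at chr3:15691744-15692067 and the ATP6V0D2 probe at chr3:101633862-101635500, both on the plus strand, cover 324 and 1639 bases of the genome for their 60 bases of transcript. All 60 bases of the ATF3 probe and 39 bases of the ATP6V0D2 probe are covered by further probes, whereas BCO2, IL13, CTSB and CD74 rest on a single probe each.

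The interaction was called in 7205 of 28891 genes or identifiers tested, which is 24.9% (limma, adjusted p under 0.05). More positive at T24 were 4404 (15.2%) and more negative 2801 (9.70%). The median size among called genes was 1.15 on the log2 scale. An absolute log2 value of at least 1 was reached by 4410 of them (61.2%), and 7024 had the same sign in all 4 rabbits. The share of positive calls depended on the scaling. It was 61.1% with arrays centred on their median, whereas the scanner's processed signal scaled on the 75th percentile gave 3454 positive and 3438 negative calls, a share of 50.1%. The median interaction over all genes was -0.02 with the first scaling and -0.12 with the second.

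At T4, 4221 genes (14.6%) were higher and 2995 (10.4%) lower in PMA-Ionomycin than in mock-stimulated cells. At T24, 6621 genes (22.9%) were higher and 3709 (12.8%) lower. Among the 7205 genes with a called interaction the most frequent course was no call at T4 and a higher level at T24, with 2176 genes (30.2%), followed by no call at T4 and a lower level at T24, with 1150 genes (16%). Opposite effects were called at both times in 810 genes (11.2%) lower at T4 and higher at T24, and in 344 (4.77%) higher at T4 and lower at T24. A further 755 genes (10.5%) were higher at T4 and not called at T24, and 622 (8.63%) lower at T4 and not called at T24. These counts describe the 7205 genes and were not tested further.

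**Figure D1:**
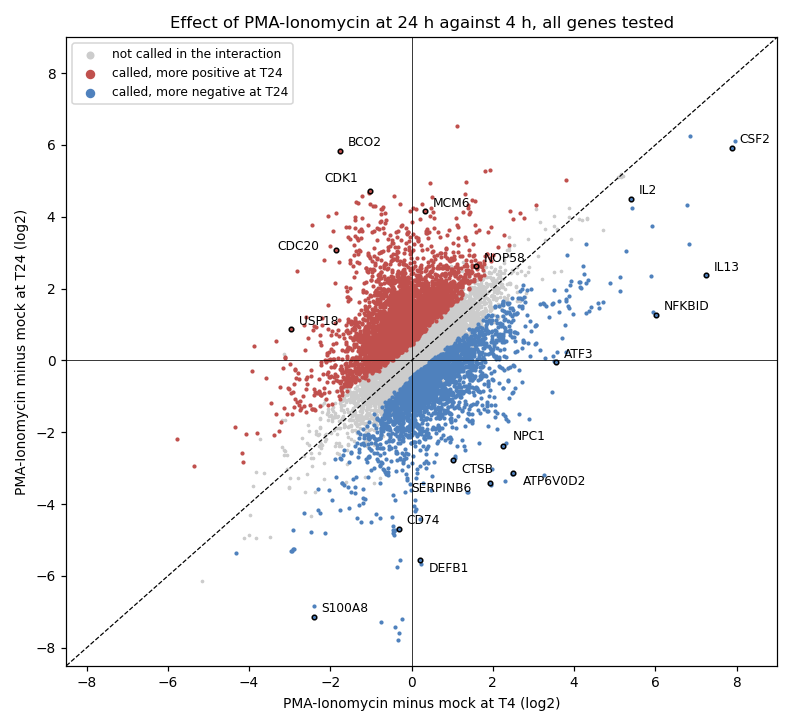
Each point is a gene, with the PMA-Ionomycin minus mock difference at T4 on the horizontal axis and at T24 on the vertical axis (log2). Points above the dashed diagonal have a positive interaction. The 4404 genes called more positive are in red and the 2801 called more negative in blue, and CDK1 and BCO2 lie to the left of zero and above the diagonal, while IL13 and NFKBID lie far to the right, above zero at both times but below the diagonal.

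The interaction is also the change from T4 to T24 in the PMA-Ionomycin cultures minus the change in the mock cultures, so it can be set beside the change called in each kind of culture. PMA-Ionomycin cultures changed between T4 and T24 in 10236 genes (35.4%) and mock cultures in 4164 (14.4%). Of the 4404 genes more positive at T24, the change was called in the PMA-Ionomycin cultures alone for 2971 (67.5%), in both for 999 (22.7%) and in the mock cultures alone for 282 (6.40%). Of the 2801 genes more negative at T24, it was called in the PMA-Ionomycin cultures alone for 1636 (58.4%), in both for 507 (18.1%) and in the mock cultures alone for 523 (18.7%). In 152 and 135 genes of these directions no change was called in either kind of culture. Among the gene lists, mitosis genes changed in both kinds of culture, lysosomal genes mostly in the mock cultures, and immediate early factors and lymphocyte cytokines mostly in the stimulated ones.

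**Figure D2:**
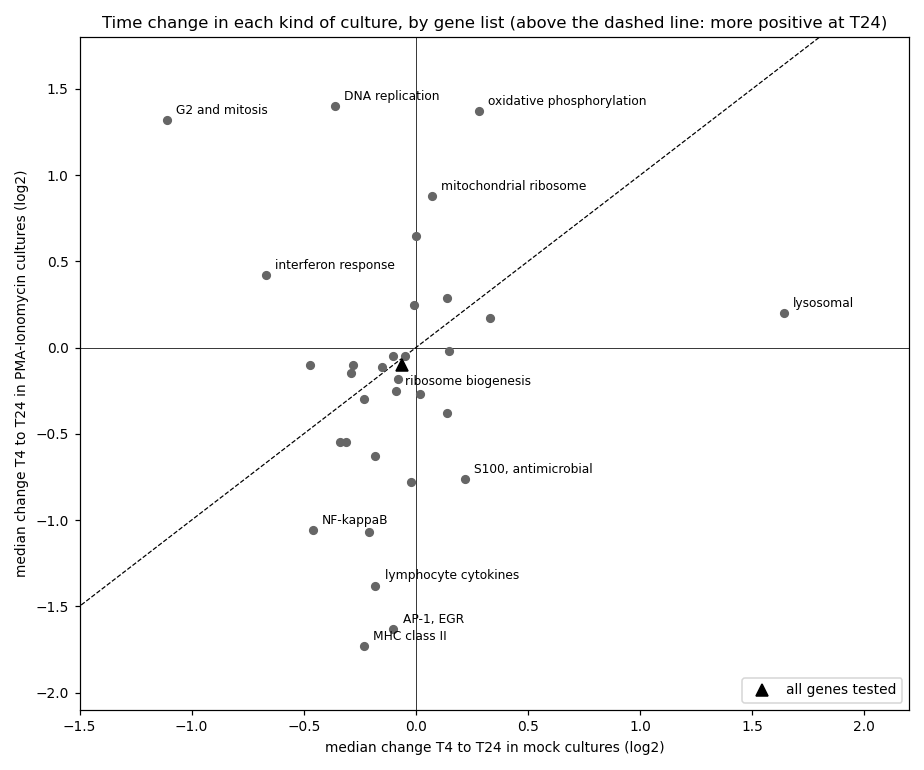
Each grey point is a gene list, with the median change from T4 to T24 in mock cultures on the horizontal axis and in PMA-Ionomycin cultures on the vertical axis (log2), and the triangle is the median over all genes. Lists above the dashed line have a positive median difference; lysosomal genes lie far to the right at 1.64 in mock cultures, and G2 and mitosis genes lie to the left at -1.11.

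Genes of G2 and mitosis had the most frequent positive interaction among the lists. Of 63 measured, 56 were more positive at T24 and none more negative, with a median of 2.49 (3.94 with the processed signal) against -0.02 over all genes. At T4, 42 of the 63 were lower and 3 higher in stimulated than in mock cells, and at T24, 55 were higher and none lower. Both kinds of culture contributed, since 52 of the genes rose from T4 to T24 in the PMA-Ionomycin cultures and 49 fell in the mock cultures. The median of the list was between 2.20 and 2.66 in the 4 rabbits.

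CDK1 is the kinase that drives entry into mitosis. In rabbits 1, 2, 4 and 5 its level, as log2 intensity relative to the array median, was 4.32, 3.25, 3.35 and 3.17 in mock cultures at T4 and 2.94, 1.92, 2.29 and 2.82 in PMA-Ionomycin cultures. At T24 it was 1.35, 0.67, 1.17 and 1.13 in mock cultures and 6.11, 5.53, 5.99 and 5.54 in PMA-Ionomycin cultures. The groups did not overlap at either time, and the order of mock and stimulated cells was opposite at T4 and T24. The difference was -1.03 ± 0.17 (log2, SE) at T4 and 4.71 ± 0.17 at T24, a 26.2-fold higher level, and the interaction was 5.74 ± 0.25 (adjusted p = 8.57e-10).

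CCNB1 encodes cyclin B1, the partner of CDK1, and followed the same course. Its level in mock cultures was 4.57, 3.56, 3.91 and 4.07 at T4 and 1.82, 0.97, 1.51 and 1.94 at T24. In PMA-Ionomycin cultures it was 3.27, 2.18, 3.25 and 3.59 at T4, which overlapped with mock cultures, and 6.33, 5.45, 6.01 and 5.62 at T24, which did not. The interaction was 5.25 ± 0.25 (adjusted p = 2.49e-09). The condensin subunit NCAPG (5.70 ± 0.22) and the ubiquitin-conjugating enzyme UBE2C (5.26 ± 0.22) had interactions of like size. The anaphase activator CDC20 (4.94 ± 0.26), the proliferation marker MKI67 (4.91 ± 0.27) and the kinetochore proteins NDC80 (4.76 ± 0.25) and NUF2 (4.63 ± 0.23) came next, with NCAPG2 at 4.52 ± 0.26. ARL3, a small GTPase of cilia that belongs to none of the lists, had an interaction of 4.39 ± 0.28. The same sign in all 4 rabbits was a condition for naming these genes.

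Genes of DNA replication were likewise more positive at T24, but most of them were not called at T4. Of 51 measured, 38 were more positive at T24 and 1 more negative, with a median of 1.83. At T4, 6 were higher and 1 lower in stimulated cells. At T24, 46 were higher. MCM6, a subunit of the replicative helicase, had levels of 4.34, 3.63, 3.75 and 3.69 in mock and 4.45, 3.66, 4.39 and 4.22 in PMA-Ionomycin cultures at T4. The groups overlapped there, with a difference of 0.33 ± 0.18 (adjusted p = 0.257). At T24 the levels were 2.40, 2.23, 2.68 and 3.03 in mock and 6.92, 6.80, 6.56 and 6.69 in PMA-Ionomycin cultures, without overlap, and the interaction was 3.83 ± 0.26 (adjusted p = 4.55e-08). Thymidylate synthase TYMS (4.02 ± 0.20), thymidine kinase TK1 (3.95 ± 0.22) and the polymerase clamp PCNA (2.98 ± 0.22) were also more positive at T24. POLD3, a subunit of DNA polymerase delta, was the exception. It was 3.70-fold higher in stimulated cells at T4 and 1.69-fold higher at T24, with an interaction of -1.14 ± 0.23 (adjusted p = 0.00187).

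**Figure D3:**
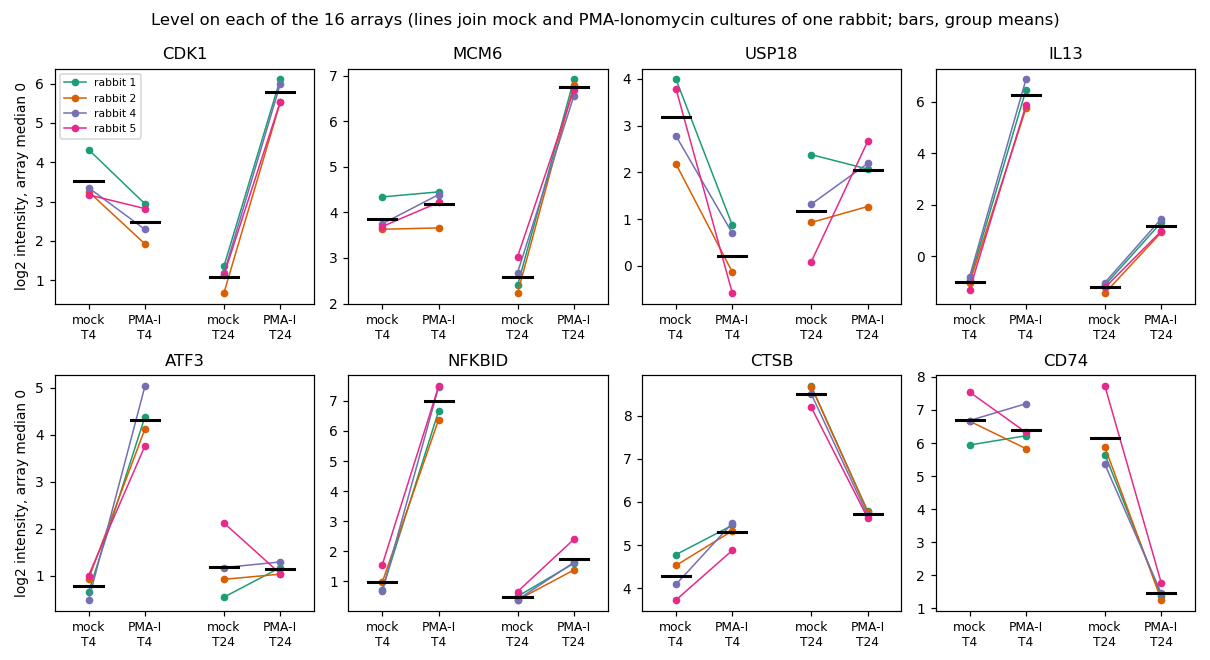
Level of 8 genes on each of the 16 arrays (log2 intensity relative to the array median, with a different vertical scale for each gene). Points of the mock and PMA-Ionomycin cultures of a rabbit are joined and bars are group means; CDK1 and CTSB turn direction between T4 and T24, while IL13, ATF3 and NFKBID separate the groups most at T4.

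Regulators of the cell cycle outside these lists moved in both directions. Of 22 cell cycle inhibitors and G1 cyclins, 7 were more positive and 5 more negative at T24, with a median of -0.18. Without rabbit 5, 4 were more positive. CDKN1A, the p21 inhibitor of cyclin-dependent kinases, was 2.16 ± 0.20 higher at T4 and 0.59 ± 0.20 higher at T24, an interaction of -1.57 ± 0.28 (adjusted p = 0.000613). CDKN2C, an inhibitor of CDK4 and CDK6, had an interaction of 2.29 ± 0.19 and the antiproliferative gene BTG2 one of -2.66 ± 0.30.

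Nuclear genes of oxidative phosphorylation were higher in stimulated cells mainly at T24. Of 32 measured, 23 were more positive at T24 and none more negative, with a median of 1.00. At T4, 1 of them was higher and 6 lower, and at T24, 23 were higher and none lower. In the PMA-Ionomycin cultures 29 of the 32 rose between T4 and T24, against 6 in the mock cultures. NDUFB6, a subunit of complex I, was 0.75 ± 0.19 lower at T4 and 1.20 ± 0.19 higher at T24 (interaction 1.95 ± 0.26, adjusted p = 5.08e-05). Of 36 mitochondrial ribosomal proteins 18 were more positive and none more negative (median 0.66), with MRPL47 the largest at 2.27 ± 0.29. Of these 36, 14 were already higher at T4, and 30 were higher at T24. With quantile normalization 15 were more positive and 3 more negative, with a median of 0.34. Of 41 proteasome subunits 18 were more positive and 1, PSMA4, more negative (median 0.42). PSMA4 was not called without rabbit 1, whereas quantile normalization gave 3 negative calls and a median of 0.14.

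Genes of ribosome biogenesis were higher at both times. Of 56 measured, 54 were higher at T4 (median 1.68) and 52 at T24 (median 1.60), and 51 were higher at both. Their interaction was called in 6 as more positive and in 13 as more negative, with a median of -0.16 that turned positive within slide 3. With the 4 other scalings 17 to 20 were more negative and 2 to 6 more positive, with medians from -0.42 to -0.23. Without rabbits 1, 4 or 5 the number more negative was 7, 6 or 5, and without rabbits 1 or 2 the number more positive was 3. NOP58, a core protein of the box C/D ribonucleoproteins, had mock levels from 5.83 to 6.88 and stimulated levels from 7.62 to 7.82 at T4. At T24 they were 5.39 to 5.82 and 7.97 to 8.59, and the groups were separate at both times. Its interaction was 1.03 ± 0.29 (adjusted p = 0.0156), and that of POLR1C, a subunit of RNA polymerases I and III, was -1.26 ± 0.31.

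Many tRNA synthetases, initiation factors, chaperones and genes of amino acid synthesis were likewise higher at both times, but cytosolic ribosomal proteins were not. Of 45 tRNA synthetases and initiation factors, 29 were higher at T4 and 31 at T24, and 23 at both. Their interaction was positive in 11 and negative in 5, and without rabbit 1 in 2 and 1. Without rabbit 2 it was positive in 5, and without rabbit 5 negative in 3. Of 33 chaperones, 21 were higher at T4 and 19 at T24, with 10 more positive and 3 more negative (5 without rabbit 5). HSPD1 and HSPE1, which form the mitochondrial chaperonin, were more positive at T24 by 1.71 ± 0.20 and 1.96 ± 0.27, whereas DNAJB9, a cochaperone of the endoplasmic reticulum, was more negative by -2.06 ± 0.21. Of 30 genes of amino acid synthesis and transport, 23 were higher at T4 and 21 at T24, with 9 more positive and 8 more negative. The serine synthesis enzyme PSAT1 (2.25 ± 0.24) and the amino acid transporter subunit SLC3A2 (-2.50 ± 0.36) stood at the ends of that list. Of 13 cytosolic ribosomal proteins 1 was higher at T4 and 6 at T24, with 0 higher at both times. Their interaction was positive in 5 (3 without rabbit 1 and 2 without rabbit 2), with a median of 0.24.

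**Figure D4:**
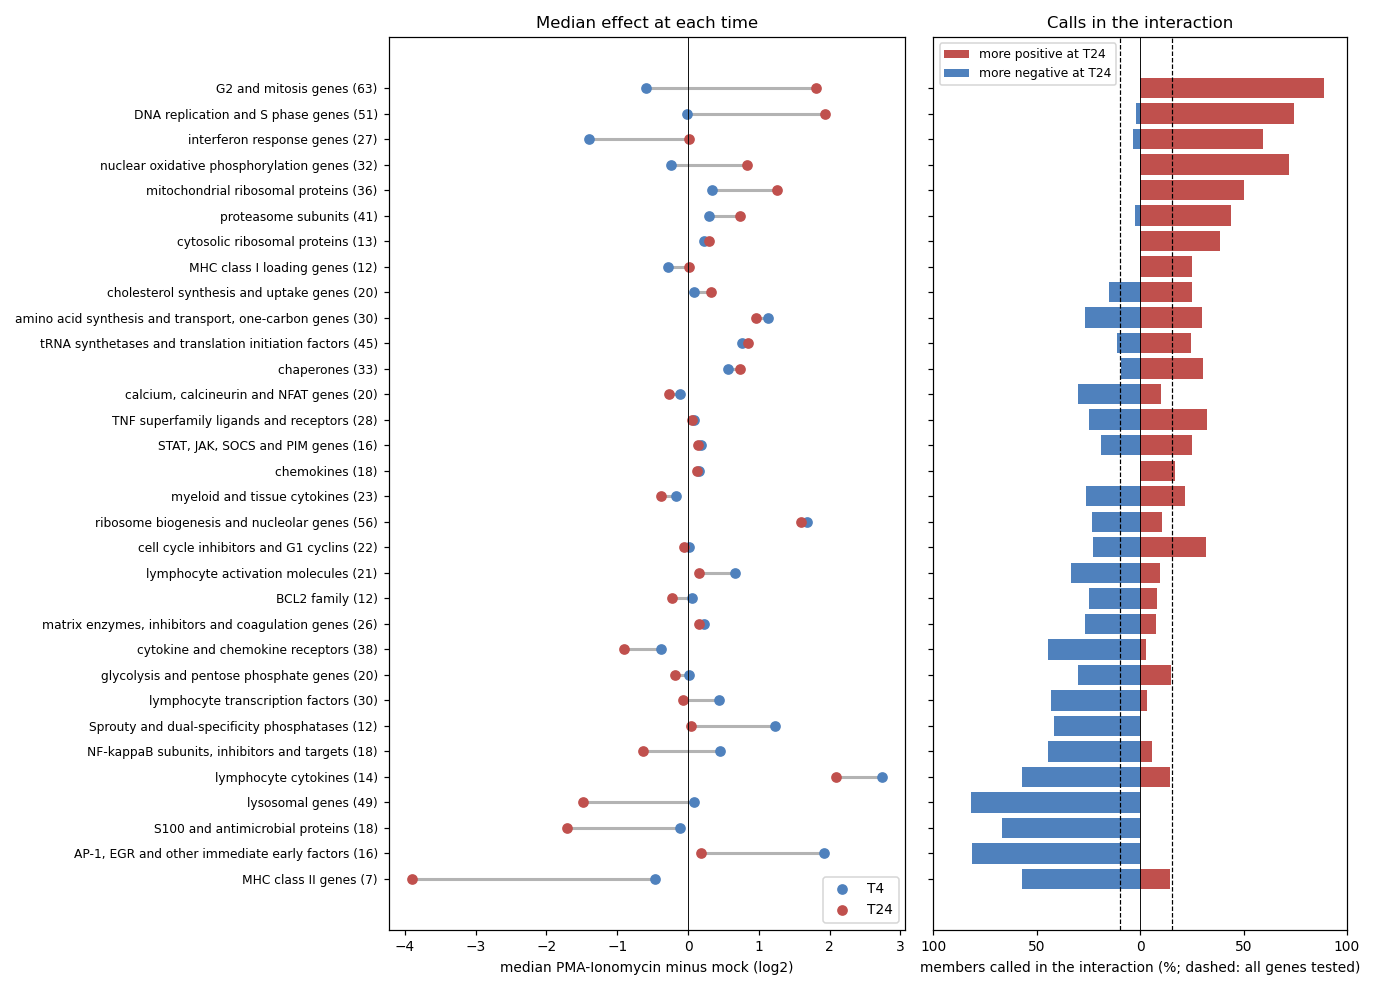
Left, the median PMA-Ionomycin minus mock difference of each gene list at T4 (blue) and T24 (red) on the log2 scale, with the number of measured genes in parentheses. Right, the percentage of each list called more positive (red) or more negative (blue) at T24, with dashed lines at the 15.2% and 9.70% of all genes; mitosis genes stand at 88.9% positive and lysosomal genes at 81.6% negative.

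Genes of the interferon response were lower in stimulated cells at T4, and their median was near that of mock cells at T24. Of 27 measured, 23 were lower and 1 higher at T4 (median -1.40), while at T24, 6 were lower and 1 higher (median 0.01). The interaction was positive in 16 and negative in 1, ISG20, with a median of 1.43. In the mock cultures 11 fell and 3 rose between T4 and T24, and in the PMA-Ionomycin cultures 11 rose and 2 fell. The median differed among rabbits, at 0.74, 0.72 and 0.82 in rabbits 1, 2 and 4 and 2.74 in rabbit 5. Without rabbit 5 it was positive in 13 and negative in 2, with a median of 0.89.

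USP18 encodes the protease that removes ISG15 from proteins. Its level at T4 was 3.99, 2.18, 2.78 and 3.79 in mock cultures and 0.87, -0.13, 0.70 and -0.58 in PMA-Ionomycin cultures, of which only 2 were above background. The groups were separate at T4 but overlapped at T24, with 2.38, 0.93, 1.32 and 0.09 in mock and 2.07, 1.27, 2.19 and 2.66 in PMA-Ionomycin cultures. The difference was -2.97 ± 0.38 at T4 and 0.87 ± 0.38 at T24 (adjusted p = 0.0910), and the interaction was 3.83 ± 0.53 (adjusted p = 6.57e-05). In rabbit 5 the interaction was 6.93, and the lowest of the 4 was 2.65.

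RIGI and IFIH1 encode cytosolic sensors of viral RNA. RIGI levels at T4 were 4.64, 3.10, 3.01 and 3.64 in mock and 1.96, 1.08, 1.70 and 0.06 in PMA-Ionomycin cultures, again without overlap. At T24 they were 2.86, 2.35, 1.79 and 0.82 in mock and 3.19, 2.37, 2.61 and 3.45 in PMA-Ionomycin cultures, with overlap, and the interaction was 3.35 ± 0.52 (adjusted p = 0.000168). IFIH1 had an interaction of 2.89 ± 0.48 and the apoptosis factor XAF1 one of 3.18 ± 0.66. The ubiquitin-like modifier ISG15 had one of 2.25 ± 0.70 (adjusted p = 0.0276), with values from 0.38 to 6.34 among the rabbits. CXCL10, an interferon-induced chemokine that attracts T cells, was 2.54 ± 0.38 lower at T4 by the fit and not called at T24, with an interaction of 3.16 ± 0.54. It was above background in 1 of 4 stimulated cultures at T4.

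PSMB9, a subunit of the immunoproteasome, had levels of 6.78 to 8.16 in mock and 6.14 to 6.49 in PMA-Ionomycin cultures at T4, and of 5.58 to 6.51 and 8.23 to 8.47 at T24. It was 1.99-fold lower at T4 and 4.77-fold higher at T24, and its interaction was 3.24 ± 0.36 (adjusted p = 8.01e-06). Among 12 genes of MHC class I loading, 3 were more positive, namely PSMB9, PSMB8 and NLRC5, and none more negative, with a median of 0.20 that changed sign under some scalings. IRF1 was 1.48 ± 0.25 higher at T4 and not called in the interaction (-0.97 ± 0.35, adjusted p = 0.0546).

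Of 16 genes of the STAT, JAK, SOCS and PIM families, 4 were more positive and 3 more negative (1 without rabbit 4), with a median of -0.10. STAT4, which transmits the interleukin-12 signal, was not called at T4 (0.39 ± 0.19) and was 3.42 ± 0.19 higher at T24. The feedback inhibitors SOCS1 and SOCS3 moved apart, with interactions of 1.56 ± 0.32 and -2.30 ± 0.41. SOCS3 was 2.14 ± 0.29 higher at T4 and not called at T24 (-0.16 ± 0.29).

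Immediate early factors were induced at T4, and fewer of them were above mock cells at T24. Of 16 AP-1, EGR and related factors, 14 were higher at T4 and none lower (median 1.92). At T24, 6 were higher and 3 lower (median 0.18). The interaction was negative in 13 and positive in none, with a median of -1.63. The change lay in the stimulated cultures, where 14 fell and none rose between T4 and T24, against 6 that fell and 1 that rose in mock cultures.

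ATF3, a transcription factor of the AP-1 family, was measured by 5 probes. At T4 its level was 0.65, 0.93, 0.48 and 1.00 in mock and 4.38, 4.12, 5.03 and 3.76 in PMA-Ionomycin cultures, and the groups were separate. At T24 it was 0.54, 0.92, 1.17 and 2.12 in mock and 1.17, 1.03, 1.29 and 1.04 in PMA-Ionomycin cultures, and they overlapped. ATF3 was 11.8-fold higher at T4, and its interaction was -3.61 ± 0.40 (adjusted p = 8.12e-06). JUN, the partner of FOS in AP-1, KLF6 and IER3 were the 3 factors that turned from higher to lower. JUN was 3.07-fold higher at T4 and 2.21-fold lower at T24, and KLF6 4.07-fold higher and then 2.01-fold lower. MYC was higher at both times, by 3.23 ± 0.17 at T4 and 1.61 ± 0.17 at T24 (interaction -1.62 ± 0.24).

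The genes of NF-kappaB that were more negative at T24 were led by its inhibitors. Of 18 genes of the list, 8 were more negative and 1, the kinase CHUK, more positive, with a median of -0.68. Without rabbit 4 the number more negative was 5, and CHUK was not called when any 1 rabbit was left out. NFKBID, a nuclear inhibitor of the IkappaB family that is induced by antigen receptor signals, had levels of 0.72, 0.97, 0.67 and 1.55 in mock and 6.67, 6.38, 7.47 and 7.49 in PMA-Ionomycin cultures at T4. At T24 they were 0.50, 0.38, 0.39 and 0.66 in mock and 1.60, 1.38, 1.63 and 2.40 in PMA-Ionomycin cultures. The groups were separate at both times, with a 65.0-fold higher level at T4 and 2.41-fold at T24, and the interaction was -4.75 ± 0.27 (adjusted p = 6.75e-09). NFKBIZ, of the same family, was 2.49-fold higher at T4 and 3.52-fold lower at T24. NFKBIA, the IkappaB-alpha that retains NF-kappaB in the cytoplasm, was not called at T4 (0.73 ± 0.29, adjusted p = 0.0848) and was 1.51 ± 0.29 lower at T24. Among 12 Sprouty, dual-specificity phosphatase and related inhibitors of MAP kinase signalling, 10 were higher at T4 and 5 at T24. Of these 12, 5 were more negative and none more positive, with ERRFI1 at -2.69 ± 0.33 and DUSP1 at -2.23 ± 0.23.

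Cytokines of lymphocytes were induced at both times, and 8 of them less at T24. Of 14 measured, 10 were higher at T4 (median 2.74) and 11 at T24 (median 2.09), 9 of them at both times. The interaction was negative in 8 and positive in 2, with a median of -1.28. Only 1 was positive without rabbit 1, 2 or 5, with the 4 other scalings and without the replicate block. The processed signal gave 5 negative calls and a median of -0.84, and within slides 1 and 2 the median was -0.78 and -0.21. In the PMA-Ionomycin cultures 9 of the 14 fell and 1 rose between T4 and T24.

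IL13, a cytokine of type 2 helper cells, had the largest of these changes. Its level was -0.95, -1.03, -0.80 and -1.30 in mock and 6.46, 5.75, 6.87 and 5.87 in PMA-Ionomycin cultures at T4. At T24 it was -1.13, -1.44, -1.03 and -1.22 in mock and 1.31, 0.92, 1.45 and 0.97 in PMA-Ionomycin cultures. No mock culture was well above background at either time, so IL13 was at least 137-fold higher at T4 and at least 4.32-fold higher at T24. These bounds set the stimulated cultures against the higher of the mock signal and the lowest signal well above background on each array. The PMA-Ionomycin cultures alone changed by -5.07 from T4 to T24, and the interaction was -4.88 ± 0.20 (adjusted p = 7.89e-10). Where a group was not above background, as here, the interaction is a fitted value and not a measured size.

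IL4, of the same helper cells, was 111-fold higher at T4 and 20.2-fold at T24 (interaction -2.46 ± 0.37). IL10, which restrains inflammation, was 35.1-fold higher at T4, with stimulated levels of 4.21 to 5.99 against -0.58 to 0.68 in mock cultures. At T24 its groups overlapped, at 1.36 to 3.56 and -1.08 to 1.76, and the interaction was -3.20 ± 0.81 (adjusted p = 0.00785). IL17A, the cytokine of Th17 cells, was at least 20.4-fold higher at T4 and at least 4.66-fold at T24. IL2, the growth factor of T cells, was at least 39.4-fold higher at T4 and at least 20.8-fold at T24, with an interaction of -0.90 ± 0.18 (adjusted p = 0.00158). CSF2, which encodes GM-CSF, had stimulated levels of 7.77 to 8.74 at T4 and 4.44 to 5.90 at T24, with an interaction of -1.96 ± 0.38.

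IFNG, the cytokine of Th1 and cytotoxic cells, was not called in the interaction (0.69 ± 0.45, adjusted p = 0.347). Its level in PMA-Ionomycin cultures was 2.01, 2.96, 2.94 and 0.62 at T4 and 3.43, 3.18, 2.58 and 1.90 at T24. No mock culture was above background, and IFNG was at least 7.97-fold higher at T4 and at least 13-fold at T24. The values of the 4 rabbits ran from -0.50 to 1.55. The 2 genes with a positive interaction were TNF and LTA. TNF, a cytokine that mock cultures also expressed, fell in both kinds of culture, by 1.55 on the log2 scale in PMA-Ionomycin and by 3.24 in mock cultures. It was not called at T4 (0.90 ± 0.41) and was 6.03-fold higher at T24 (interaction 1.69 ± 0.58, adjusted p = 0.0454). IL9 was 1.01 ± 0.17 higher at T4 and 1.10 ± 0.17 at T24, and IL5 was above background on no array.

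Myeloid and tissue cytokines had no common course. Of 23 measured, 5 were more positive and 6 more negative, with a median of -0.13 that changed sign within slide 1. LIF, a cytokine of the interleukin-6 family, had stimulated levels of 2.81 to 3.11 at T4 and -0.92 to -0.49 at T24, when it no longer differed in a called way from mock cultures (0.12 ± 0.13). Its interaction was -3.37 ± 0.19 (adjusted p = 7.24e-09). IL34, a ligand of the CSF1 receptor, took the opposite course, with stimulated levels of -0.74 to -0.41 at T4 and 2.34 to 4.16 at T24. It was 11.7-fold higher at T24, and its interaction was 3.20 ± 0.40. IL12A (1.99 ± 0.35), whose mock cultures at T24 were not above background, and IL18 (1.58 ± 0.32) were also more positive. IL1B was not called (-2.47 ± 1.21, adjusted p = 0.173), and the rabbits ranged from -5.83 to 2.90. IL16 was lower at both times, by 4.14 ± 0.22 at T4 and 2.84 ± 0.22 at T24, with a positive interaction of 1.30 ± 0.31. Of 18 chemokines, 3 (CXCL10, CXCL11 and CCL27) were more positive and none more negative (2 without rabbit 5), and CXCL8 was not called (-2.23 ± 0.97, adjusted p = 0.119). The positive share of 16.7% was near the 15.2% of all genes tested.

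Many receptors of cytokines and chemokines were lower in stimulated cells at T4, at T24 or at both. Of 38 measured, 4 were higher and 15 lower at T4, and none was higher and 22 lower at T24. The interaction was negative in 17 and positive in 1, IL12RB2, with a median of -0.50. Without rabbit 2 it was negative in 10, and IL12RB2 was not called without rabbit 1 or 4, with the deposited table or without the replicate block. IL6ST, the gp130 chain shared by receptors of the interleukin-6 family, had levels of 1.44 to 1.98 in mock and 3.75 to 4.76 in PMA-Ionomycin cultures at T4, and of 1.66 to 3.18 and 0.79 to 1.19 at T24. The groups were separate at both times and their order turned, from 5.19-fold higher to 3.21-fold lower. The interaction was -4.06 ± 0.33 (adjusted p = 2.89e-07). CXCR4, the receptor that holds lymphocytes in tissues that make CXCL12, was not called at T4 (-0.45 ± 0.22) and was 13.3-fold lower at T24 (interaction -3.28 ± 0.31). The decoy receptor IL1R2 (-3.50 ± 0.86) and the interferon gamma receptor chain IFNGR2 (-2.30 ± 0.29) were also more negative.

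In the TNF superfamily, 9 of 28 genes were more positive and 7 more negative, but with the 4 other scalings only 4 or 5 were more positive, and 4 without the replicate block. Without rabbits 1, 2, 4 or 5 the number more positive was 2, 4, 6 or 3, and without rabbit 4 the number more negative was 3. CD70, the ligand of CD27, was 3.50-fold higher at T4 and 38.4-fold at T24, with levels of 6.42 to 6.68 in PMA-Ionomycin and 1.08 to 1.65 in mock cultures at T24 (interaction 3.46 ± 0.23). TNFSF13, which encodes the B cell factor APRIL, had an interaction of -2.41 ± 0.36. Of 21 lymphocyte activation molecules 2 were more positive, the inhibitory receptor LAG3 (2.89 ± 0.29) and perforin PRF1 (1.72 ± 0.24). Another 7 were more negative (4 without rabbit 4), led by SLAMF1 at -3.08 ± 0.44. Of 30 lymphocyte transcription factors 13 were more negative and 1, ZBTB32, more positive, though none was with normexp and quantile normalization or without the replicate block. SATB1 was 1.64 ± 0.21 higher at T4 and 0.84 ± 0.21 lower at T24, and IRF4 stayed higher at both times with an interaction of -1.49 ± 0.25. Of 20 calcium, calcineurin and NFAT genes 2 were more positive and 6 more negative (3 without rabbit 1), among them the calcium release channel ITPR1 (-1.75 ± 0.23).

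Most lysosomal genes had a negative interaction. Of 49 measured, 40 were more negative at T24 and none more positive, with a median of -1.52. At T4, 10 were higher and 10 lower in stimulated cells (median 0.08), and at T24, 44 were lower and none higher (median -1.48). Most of the change lay in the mock cultures, where 41 of the 49 rose between T4 and T24 with a median of 1.64, while in the PMA-Ionomycin cultures 12 rose and 9 fell with a median of 0.20. The median was between -1.81 and -1.26 in the 4 rabbits.

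CTSB encodes the lysosomal protease cathepsin B. Its level at T4 was 4.78, 4.53, 4.09 and 3.73 in mock and 5.46, 5.33, 5.51 and 4.88 in PMA-Ionomycin cultures. At T24 it was 8.68, 8.67, 8.50 and 8.19 in mock and 5.79, 5.77, 5.69 and 5.63 in PMA-Ionomycin cultures. The groups were separate at both times and in opposite order, with a 2.02-fold higher level at T4 and a 6.89-fold lower one at T24. The mock cultures rose by 4.22 and the stimulated ones by 0.43, and the interaction was -3.80 ± 0.20 (adjusted p = 4.40e-09).

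ATP6V0D2, a subunit of the proton pump found in macrophages and osteoclasts, rose in mock cultures from -0.09, -0.60, -0.58 and -0.95 at T4 to 5.20, 5.92, 6.80 and 5.70 at T24. In PMA-Ionomycin cultures it was 2.66, 1.95, 2.13 and 1.07 at T4 and 3.31, 3.30, 2.36 and 2.16 at T24. Stimulated cells were thus above mock cells at T4, when 1 mock culture was above background, and below them at T24, by 8.73-fold. The interaction was -5.63 ± 0.44 (adjusted p = 2.26e-07). NPC1, which exports cholesterol from lysosomes, had mock levels of 1.37 to 2.83 and stimulated levels of 3.96 to 4.98 at T4, against 3.72 to 4.21 and 1.32 to 1.81 at T24. Its interaction was -4.64 ± 0.33, and 9 of the 49 lysosomal genes turned in this way from higher to lower. CTSS, a cathepsin of antigen presentation, was lower at both times and not called in the interaction (-0.15 ± 0.30, adjusted p = 0.836).

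Markers of monocytes moved with these genes. Of 14 measured, 7 were more negative and 1, TLR2, more positive, with a median of -1.50. The mean log2 level of the 14 on an array lay between 1.91 and 2.99 in mock and 1.46 and 1.93 in PMA-Ionomycin cultures at T4, and between 2.69 and 4.03 and 1.48 and 1.93 at T24. None of the 14 was below background on all 16 arrays. CD14 was lower by 3.01 ± 0.27 at T4 and 3.27 ± 0.27 at T24 and was not called in the interaction (-0.27 ± 0.38). CD68, which the lysosomal list also holds, rose in mock cultures and had an interaction of -2.46 ± 0.24. Of 8 neutrophil markers 4 were more negative (median -1.14, or -1.75 with the processed signal), and of 8 dendritic cell markers 4 (2 without rabbit 4 or 5, median -0.55). The part of these cells in the lysosomal, MHC class II and S100 results was not tested.

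MHC class II genes, which present peptides to helper T cells, were lower in stimulated cells at T24. Of 7 measured, 6 were lower and 1 higher at T24 (median -3.90), against 3 lower and none higher at T4 (median -0.47). The interaction was negative in 4 and positive in 1, the regulator RFXAP, which was not called without rabbit 1, with a median of -1.95. CD74, the invariant chain, had levels of 5.94, 6.66, 6.68 and 7.54 in mock and 6.22, 5.83, 7.19 and 6.32 in PMA-Ionomycin cultures at T4, with overlap. At T24 it was 5.65, 5.87, 5.35 and 7.72 in mock and 1.36, 1.25, 1.45 and 1.76 in PMA-Ionomycin cultures, 25.8-fold lower and without overlap. The interaction was -4.38 ± 0.48 (adjusted p = 7.69e-06). The DR alpha chain RLA-DR-ALPHA (-4.15 ± 0.55) and HLA-DOA (-4.12 ± 0.59), a modulator of peptide loading, followed CD74, and both were not called at T4.

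The chains of the peptide exchange factor DM were lower in stimulated cells at both times. RLA-DMB was 5.45-fold lower at T4 and 7.61-fold lower at T24, and its interaction was not called (-0.48 ± 0.24, adjusted p = 0.175). RLA-DMA was 3.86-fold lower at T4 and 14.9-fold lower at T24 (interaction -1.95 ± 0.32). Of 9 B cell markers, which share a cell type with MHC class II, 2, CD79B among them, were more positive and 2 (MS4A1 and FCRL1) more negative, with a median of 0.10. Without rabbit 2 or 4 none was more negative and without rabbit 5 only 1, and without rabbit 1 or 2 only 1 was more positive. Other scalings gave 0 to 2 negative and 1 or 2 positive calls, the fit without the replicate block gave 1 positive call, and the median turned negative with quantile normalization (-0.05). CD79B, a chain of the B cell receptor, was 3.93 ± 0.28 lower at T4 and not called at T24 (-0.29 ± 0.28), with an interaction of 3.64 ± 0.40. MS4A1, which encodes CD20, was lower at both times. Of the 12 T cell markers none was called in the interaction, and their median was 0.08. Without rabbit 2, 1 was more positive, and with the processed signal 1 was more negative and the median was -0.08.

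Of 18 S100 and antimicrobial proteins, 12 were more negative and none more positive, with a median of -1.55, and 15 were lower at T24. DEFB1, a beta defensin, had the largest negative interaction of the genes with a symbol above background on all arrays. Its level at T4 was 5.62, 4.91, 5.22 and 3.18 in mock and 5.45, 5.13, 5.38 and 3.77 in PMA-Ionomycin cultures, which overlapped. At T24 it was 5.44, 5.23, 6.24 and 5.33 in mock and 0.10, 0.25, -0.19 and -0.09 in PMA-Ionomycin cultures, a 46.7-fold lower level. The interaction was -5.75 ± 0.45 (adjusted p = 2.31e-07). S100A8, a subunit of calprotectin, was lower at both times, by 2.40 ± 0.54 at T4 and 7.14 ± 0.54 at T24. Its mock levels at T24 ran from 5.83 to 10.70 among the rabbits, and its interaction was -4.73 ± 0.77 (adjusted p = 0.000265). Within slide 1 it was -0.33, and within slides 2 and 3 it was -7.95 and -7.91. These slide values ignore the pairing, since the groups of a slide held different rabbits. The paired values of the 4 rabbits ran from -5.92 to -2.79, and with rabbit and slide as blocks the interaction was -4.97. Probes named MRP-8, another name of this protein, gave -4.45 ± 0.77. The chitinase CHIT1 had an interaction of -3.36 ± 0.40.

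The genes with the largest opposite effects at T4 and T24 came from several of these lists and from outside them. BCO2, a mitochondrial enzyme that cleaves carotenoids, was above background in all mock cultures at T4 (1.86, 1.05, 0.41 and 0.88) and in none at T24 (-0.72, -0.86, -0.58 and -1.09). In PMA-Ionomycin cultures it was above background in none at T4 (-0.68, -0.51, -0.83 and -0.80) and in all at T24 (5.09, 4.74, 4.86 and 5.43). It was thus at least 3.34-fold lower at T4 and at least 57.5-fold higher at T24. After BCO2 the genes lower at T4 and higher at T24 with the largest interactions were CDK1, NCAPG, UBE2C and CCNB1.

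In the opposite direction stood ATP6V0D2, SERPINB6, NPC1, EPCAM and IL6ST. SERPINB6, an inhibitor of cathepsin G, had levels of 2.26 to 3.83 in mock and 4.05 to 5.84 in PMA-Ionomycin cultures at T4, and of 4.58 to 5.86 and 1.81 to 2.05 at T24 (interaction -5.34 ± 0.50). EPCAM, an adhesion molecule, was higher at T4 and lower at T24. Its mock levels at T24 ran from 0.39 to 3.95, and only 1 of 4 cultures was above background in the mock group at T4 and in the stimulated group at T24, so that no fold is given. With the processed signal its interaction was -8.05, against -4.62. RND3, a regulator of the actin cytoskeleton, was 1.65 ± 0.17 higher at T4 and 2.30 ± 0.17 lower at T24 (interaction -3.96 ± 0.25).

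**Figure D5:**
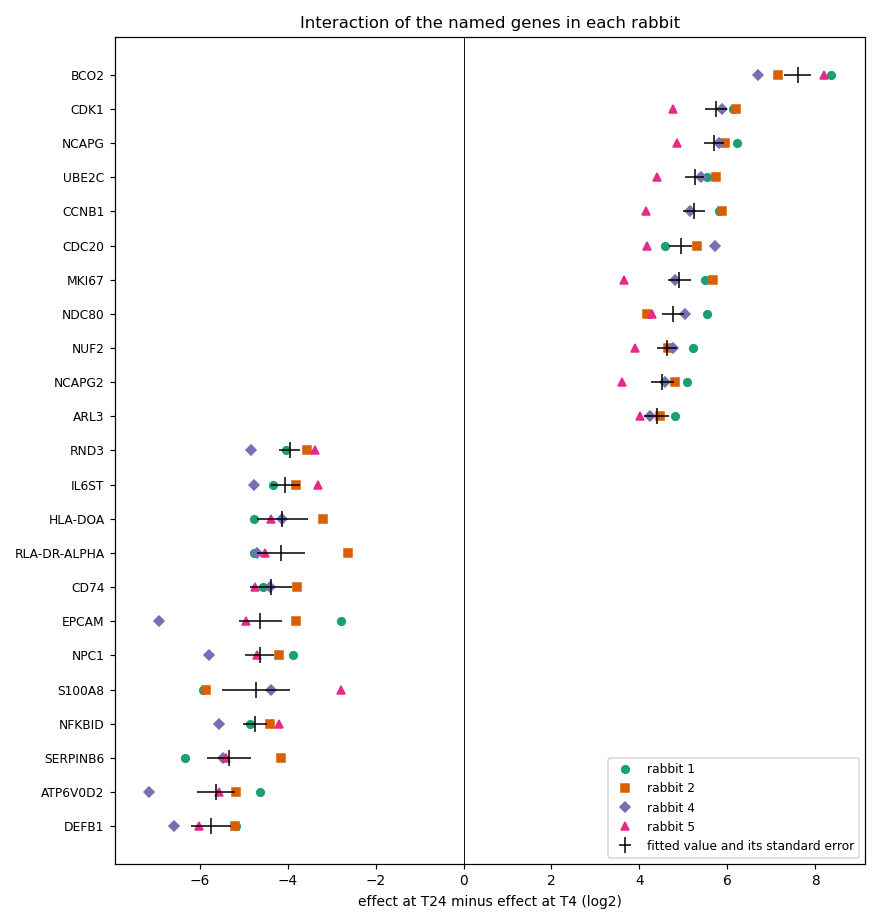
Interaction of the 23 genes chosen for their size, in each rabbit (coloured symbols) and as fitted (black, with its standard error), on the log2 scale. No symbol crosses zero. For the largest interactions in each direction this follows from the choice, since the same sign in all rabbits was required. Rabbit 5 has the lowest value in most mitosis genes, and EPCAM ranges from -6.92 to -2.78.

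The same course was set against that of LPS, a ligand of TLR4, as the difference between PMA-Ionomycin and LPS cultures at T24 minus that at T4. It was called in 10381 of the 28891 genes (35.9%), positive in 5692 and negative in 4689. Among mitosis genes 54 of 63 were positive and none negative, and among lysosomal genes 43 of 49 were negative and 1 positive. Immediate early factors were negative in 13 of 16, and interferon response genes positive in 12 and negative in 3 of 27. Not all lists kept their course against mock cells. Proteasome subunits were positive in 13 and negative in 17 of 41, against 18 and 1 with mock cells. The tRNA synthetases and initiation factors were positive in 11 and negative in 18 of 45, against 11 and 5. CDK1 differed by 5.45 (adjusted p = 6.19e-11), IL13 by -5.14 (adjusted p = 2.67e-12) and CTSB by -4.60 (adjusted p = 4.00e-08). This comparison shares the PMA-Ionomycin cultures with the comparison against mock cells. IL10 differed by -6.83 from LPS cultures in this way and by -3.20 from mock cultures.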

How the data were processed

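RNA of rabbit PBMC cultures was hybridised to one-colour Agilent arrays. Scanner files with spot intensity were deposited, made with Agilent Feature Extraction 10.7.3.1 per the submitters' processing notes, and the authors' table of log2 values, centred on the array mean, was used as an alternative. From the deposited intensity, the log2 of the median spot signal was centred on the array median after control spots and outlier spots were left out. Spots of a probe were averaged, then probes of a gene. Of 42089 probes, 20908 kept their identifier only, and 28891 genes or identifiers were tested, 9561 with a symbol. The RefSeq table of the rabbit gave the names.

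In R 4.3.3, limma 3.58.1 (lmFit, eBayes) was fitted to 16 arrays with rabbit as a block, and p-values were adjusted by Benjamini-Hochberg over all genes. Rabbit pairs the cultures of the 4 groups by the labels. The check gave a median correlation of 0.24 between same-rabbit deviations (19 of 24 pairs over 0.1) and -0.08 between rabbits. The methods of the study, all 24 arrays without the block, were an alternative, beside other scalings, filters, blocks and weights. A gene was above background where more than 0.5 of its spots were marked so. A gene with no such call on all 4 arrays of a group has a bound instead of a fold. Genes were named by rule: the 10 largest interactions in each direction among genes with a symbol, above background on all arrays and of the same sign in all rabbits, the 5 largest of each opposite course, and the members at the ends of each list or that define it. Other members were named after their values were seen, where few of a list were called. The 32 gene lists and 8 marker sets, some of which share members, and the comparison itself were chosen with earlier results of these data known. Names that matched no probe are not counted. Tested on simulated data of this design (28808 genes), the fit recovered 54 of 100 genes changed by 1 and 94 of 100 changed by 2 on the log2 scale, with 8 unchanged genes called. Only these genes were changed in the simulation, far fewer than the 7205 called in the data. The adjusted p was therefore harder to reach there, and the shares recovered do not measure what was missed here. The number of arrays limits the precision. Promoters were not analysed here, and results on some items are not reported here.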

Additional observations from a re-analysis of the deposited data

Results flagged for a closer look

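The effect of PMA-Ionomycin differed between T4 and T24 by the interaction term in 7205 genes, and the difference between PMA-Ionomycin and LPS cultures changed with time in 10381 genes. Of 63 quantities with 4 values each, 5 had a lowest or highest value far from the others, where chance alone gives about 1 in 20. The median interaction of the interferon response genes was 2.74 in rabbit 5, above the 3 other rabbits. That of the MHC class II genes was -1.05 in rabbit 1, nearer to zero than in the others. That of the STAT, JAK, SOCS and PIM genes was -0.19 in rabbit 4, the lowest of the 4. RLA-DR-ALPHA had an interaction of -2.63 in rabbit 2, the smallest in size. Among the PMA-Ionomycin arrays at T4, that of rabbit 2 had the lowest share of genes above background, at 50.6%.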

How the results depend on the processing

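Counted by single probes in place of genes, the interaction was called for 10829 probes, 4280 of them more negative at T24, the effect at T4 for 10869 and the change in mock cultures for 6427. With an absolute log2 value of at least 1 also required, the interaction was called in 4410 genes (2758 more positive, 1652 more negative), the effect at T4 in 2744 and at T24 in 4762. With the same requirement the change in PMA-Ionomycin cultures was called in 4593 genes, that in mock cultures in 1523 and the difference from LPS in 6343. In all other settings the counts stayed within 1.5 times. Without the replicate block, that is ignoring the pairing by rabbit, 6333 genes were called in the 16 arrays and 6508 in all 24. With slide as the block the count was 6083, and with rabbit and slide 7141. Leaving out 1 rabbit at a time gave 5340 to 6468 genes (3240 to 4165 more positive, 1908 to 2351 more negative), 5405 to 6251 at T4, 8927 to 9260 at T24, 8359 to 9122 in PMA-Ionomycin cultures, 2876 to 3640 in mock cultures and 8589 to 9407 against LPS, where a fit to fewer arrays has less power. The 23 genes named for their size kept sign and call in every setting that gave an adjusted p. Values within single slides, here and above, ignore the pairing, since the groups of a slide held different rabbits, and no test was made. The 23 genes kept their sign there, but S100A8 was -0.33, -7.95 and -7.91 on slides 1, 2 and 3. By over 1.5 times smaller were ATP6V0D2 (-3.31), CDC20 (3.19), DEFB1 (-3.55), EPCAM (-2.76) and RND3 (-2.25) on slide 2 and HLA-DOA (-2.56) on slide 3. The list medians of 13 lists, none above 0.27 in size, changed sign under at least 1 of 4 other scalings or within 1 of 3 slides, and those of the other 19 lists did not. With the processed signal the median was -0.89 for receptors, -0.94 for Sprouty and dual-specificity phosphatases, -0.84 for lymphocyte transcription factors, -1.09 for glycolysis, -1.26 for matrix genes and -1.55 for dendritic cell markers. With it BCO2 stood at 12.19. Within single slides the median was -0.77 for MHC class II genes and 0.25 for mitochondrial ribosomal proteins on slide 2, and 0.70 for interferon response genes on slide 3. With the processed signal 5 tRNA synthetases and initiation factors, 6 chaperones and 1 cytosolic ribosomal protein were more positive, and 8 cell cycle inhibitors and G1 cyclins (median -0.41), 5 chaperones and 9 glycolysis genes more negative. Without the replicate block 2 tRNA synthetases and initiation factors were more negative. The signal over background limits genes such as IL13 and BCO2, for which a fold is a bound.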

Other observations

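Platelet markers, a fraction that travels with PBMCs, were more positive at T24 in 5 of 8 genes and more negative in none, with a median of 0.95. With the 4 other scalings and without rabbit 5, 1 was more negative, and with the processed signal the median was 1.69. Their mean log2 level on an array lay between 1.59 and 2.15 in mock and between 0.47 and 1.00 in PMA-Ionomycin cultures at T4, and between -0.06 and 0.09 and between -0.36 and -0.08 at T24. From T4 to T24, 6 of the 8 fell in mock cultures and 4 in PMA-Ionomycin cultures, and none rose in either. Against mock cells 5 were lower and 1 higher at T4, and 1 was lower and 1 higher at T24. Only 2 of the 8 were above background on all 16 arrays. ITGB3, the beta chain of the fibrinogen receptor, was 2.44 ± 0.30 lower at T4 and 0.84 ± 0.30 higher at T24 (interaction 3.28 ± 0.42, adjusted p = 3.33e-05). TREML1, a receptor of platelet granules, fell by 4.03 on the log2 scale in mock cultures and was above background in no stimulated culture at T24. Of 7 erythrocyte markers 1, SLC4A1, was more negative, and no marker was more negative without rabbit 2, 4 or 5, with quantile normalization or with the processed signal. Of the 4 other scalings 3 gave 1 positive call. NCR3, the single NK cell marker, had an interaction of 0.70 ± 0.20 and was not called without rabbit 1, 2 or 4, with the processed signal or without the replicate block.

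Of 20 glycolysis and pentose phosphate genes 3 were more positive and 6 more negative, and without rabbit 1 the latter were 3. Without rabbit 2 or 4 or with the processed signal, 1 was more positive. The transketolase TKT had an interaction of -1.65 ± 0.33 and pyruvate kinase PKM one of -1.57 ± 0.34, whereas lactate dehydrogenase LDHB was at 1.46 ± 0.28. Of 20 cholesterol genes 5 were more positive and 3 more negative. The 3 were NPC1, the efflux transporter ABCA1 (-2.47 ± 0.36) and MYLIP (-1.96 ± 0.34), the ligase that degrades the LDL receptor. Without rabbits 1, 2 or 4 the number more positive was 2, and with quantile normalization it was 3. Of 12 BCL2 family genes 1, BCL2L15, was more positive, though not without rabbit 1, 4 or 5, without the replicate block or with 3 of the 4 other scalings. Another 3 were more negative, with the survival factor BCL2A1 at -2.79 ± 0.44 and MCL1 at -0.88 ± 0.18. Quantile normalization, alone or after normexp, gave 5 negative calls. Of 26 genes of matrix enzymes, inhibitors and coagulation 2 were more positive (1 without rabbit 1, none with the processed signal or without the replicate block) and 7 more negative (4 without rabbit 4). The metalloproteinase MMP10 was 6.83 ± 0.20 higher at T4 and, with no mock culture above background at T24, at least 7.82-fold higher then, with a fitted interaction of -3.59 ± 0.28, and MMP12 had one of 1.70 ± 0.39.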
